A study of Mus musculus with 30 samples.

Results

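The genes described here are the cytoplasmic ribosomal protein genes of the mouse. They were chosen by symbol: Rpl or Rps followed by a number and, at most, one of the endings a, x, l or l1, together with Rplp0, Rplp1, Rplp2 and Rpsa. Pseudogene names and the Rps6k kinases were left out, and at least 10 counts over the 30 libraries were required. Of the 48709 genes in the count tables, 85 had such a symbol and 83 reached 10 counts. The members nearest the limit were Rpl39l, with 409 counts in all, and outside it Rpl10l and Rps12l1, each with 0 counts. The 83 members comprised 46 proteins of the large subunit, 30 of the small subunit, and 7 paralogues. The paralogues were taken by the ending l or l1, which marks a gene named after another ribosomal protein gene (Rpl3l, Rpl6l, Rpl7l1, Rpl22l1, Rpl39l, Rps4l and Rps27l). For Rpl6l and Rps4l no transcript annotated as protein coding was found. The 76 genes that are not paralogues are called core members below. Members lay on 19 chromosomes, with 4 on the X chromosome (Rpl10, Rpl36a, Rpl39 and Rps4x).

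Cytoplasmic ribosomes translate nuclear-encoded mRNA, and each subunit is built in the nucleolus from ribosomal RNA and a fixed set of proteins. The mRNAs of these proteins are abundant, their levels tend to move together, and their translation is controlled by mTOR through a pyrimidine tract at the 5′ end of the mRNA. A few of the proteins have a paralogue with tissue-restricted expression. The best known is Rpl3l, which takes the place of Rpl3 in skeletal and heart muscle.

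The libraries were RNA-seq of brain, kidney, liver, muscle (quadriceps femoris) and spleen of adult C57BL/6 mice. Each tissue had 3 wild-type (WT) libraries, whose genotype label reads control, and 3 Ctcf+/- libraries, labelled as Ctcf haploinsufficiency. Ctcf is the zinc finger factor at the anchors of chromatin loops and at insulators. How the allele was made, the sex and exact age of the mice and whether a replicate number marks the same mouse in several tissues are not given in the sources used here. The design names 3 mice of each genotype for the 5 tissues.

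Depth was 49819907 to 131645999 counted fragments per library. A count of 0 therefore allows a level of up to 0.0228 to 0.0602 CPM (counts scaled to a common library size, the usual unit of RNA-seq levels), taking 3 counts as the limit and for counting error only. Ctcf itself was lower in every Ctcf+/- library than in every WT library of its tissue, at 61.4% of the WT level in kidney and 67.2% in muscle, with the other tissues between. Each tissue held its own defining markers: the summed level of 4 muscle genes was at least 177874 CPM in muscle libraries and at most 117 CPM elsewhere, and that of 4 liver genes at least 191074 CPM in liver and at most 826 CPM elsewhere. In every pair of replicates the counts differed by more than sampling noise.

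Counting left out fragments that fit more than 1 place or more than 1 gene, which bears on this family. Shared words and exon overlap were computed for this family only, so no share over all genes stands beside them. A median of 40.2% of the 50-base words of a member's transcripts also occurred in another annotated gene (range 0% to 86.7% over 81 members), and 28 members had over 50% of their words in other genes. Rpl6l and Rps4l had no annotated coding transcript, so their shared words were not assessed. The annotation held 275 named pseudogenes of 60 members. Exons of 34 members overlapped another gene, and in 5 of them the overlap was at least 30% of the exon bases (Rpl13a, Rpl23a, Rpl24, Rpl35 and Rps25). Values of these 5, and of members with many shared words, are uncertain in level. Rpl24, with 47.0% of its exon bases inside the readthrough gene Gm28037, had only 3386 counts over all libraries, and Rpl13a had 61269.

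The start regions of 6 members described below are shown: Rpl3l and its neighbour Rps2, and the pairs Rps27 with Rps27l and Rpl22 with Rpl22l1. No result below was drawn from these sequences. Each runs 5′ to 3′ from 90 bases before to 30 bases after the RefSeq start site, on build GRCm38.p6, and is read on the gene's strand. Capitals mark matches on either strand to CCGGAA (the core bound by ETS factors), GCCATNTT (YY1), TATAAA (the TATA box) and CAGCTG (an E-box of muscle bHLH factors).
Rpl3l, chr17:24727736-24727855, plus strand: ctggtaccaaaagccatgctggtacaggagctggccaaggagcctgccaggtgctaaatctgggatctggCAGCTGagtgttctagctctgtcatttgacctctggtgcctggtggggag
Rps2, chr17:24719973-24720092, plus strand: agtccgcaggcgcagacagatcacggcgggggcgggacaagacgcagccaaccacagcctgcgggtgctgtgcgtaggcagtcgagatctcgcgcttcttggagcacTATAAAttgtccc
Rps27, chr3:90213619-90213738, minus strand: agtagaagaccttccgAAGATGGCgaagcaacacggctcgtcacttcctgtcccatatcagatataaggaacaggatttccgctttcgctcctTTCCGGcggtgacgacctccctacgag
Rps27l, chr9:66945996-66946115, plus strand: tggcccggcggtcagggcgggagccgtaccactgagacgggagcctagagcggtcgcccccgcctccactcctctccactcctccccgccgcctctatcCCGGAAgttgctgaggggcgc
Rpl22, chr4:152325636-152325755, plus strand: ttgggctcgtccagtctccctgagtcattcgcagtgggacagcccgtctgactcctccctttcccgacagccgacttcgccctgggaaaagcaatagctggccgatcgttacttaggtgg
Rpl22l1, chr3:28805418-28805537, plus strand: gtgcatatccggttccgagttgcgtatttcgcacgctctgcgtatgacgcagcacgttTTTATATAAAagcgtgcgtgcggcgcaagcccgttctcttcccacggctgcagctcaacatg
The Rpl3l window held the E-box 20 bases before its start and none of the other 3 motifs. In the Rps2 window the letters TATAAA began 18 bases after the start, not before it. Rps27 and Rps27l shared the ETS core just after their starts, at 4 and 10 bases. The TATA box of Rpl22l1, read on both strands as an overlapping pair, began 32 and 28 bases before its start, and the Rpl22 window held none of the 4.

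RefSeq start regions were matched for 61 of the 83 members, in 73 entries of 300 bases (250 before and 50 after the start). CCGGAA or TTCCGG was in 47.9% of the members' entries and in 14.9% of all 32851 entries, and GCCATNTT or AANATGGC was in 23.3% against 6.05%. The GC box GGGCGG or CCGCCC was in 58.9% against 35.7%. By contrast, TATAAA or TTTATA was in 9.59% against 13.6%, and CAGCTG, which reads the same on both strands, was in 4.11% against 16.3%. These are shares of letters in a window, with no test.

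The members together made up a small and steady share of most libraries and a large share of spleen libraries. In WT brain they took 1.56%, 1.58% and 1.59% of all counts, and WT liver was close by at 1.71%, 1.68% and 1.67%. WT muscle had 2.44%, 2.06% and 1.79%, and WT kidney 3.04%, 3.35% and 3.13%. In WT spleen the share was 11.3%, 8.004% and 9.48%. All 3 spleen libraries lay above the other 12 WT libraries, and all 3 brain libraries lay below them. The spleen mean was 4.50 times that of the other 4 tissues and the brain mean 0.380 times (exact two-sided permutation p = 0.0044 for each, 0.011 after Benjamini-Hochberg adjustment over 5 tissues). The test permutes libraries as if replicates of a tissue were unrelated. It gives this p, its smallest, whenever all 3 libraries of a tissue lie above or below the other 12, whatever the size of the difference. Kidney (0.848 times, adjusted p = 0.967), liver (0.411 times, 0.22) and muscle (0.523 times, 0.5) did not pass the same exact permutation test. The mean of the others contains spleen, and without WT spleen replicate 1 the kidney ratio was 1.04.

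The order of liver, muscle and kidney depended on the scale. In muscle libraries 27.2% to 30.6% of counts lay in the 10 genes with most counts, and in liver 21.99% to 24.5%, against at most 12.97% elsewhere. After TMM scaling, which sets aside genes with extreme ratios, the sum was 6.92% ± 1.70 in spleen (SD, n = 3), 3.37% ± 0.532 in muscle, 2.71% ± 0.363 in liver, 2.50% ± 0.192 in kidney and 1.11% ± 0.0197 in brain. The ratio to the other 4 tissues was then 2.86 in spleen, 0.287 in brain, 0.778 in liver, 0.709 in kidney and 1.02 in muscle. Liver overlapped both kidney and muscle, while brain stayed lowest and spleen highest on both scales. Large-subunit core members held 59.2% ± 0.142 of the members' counts in brain and 54.2% ± 0.173 in spleen (SD, n = 3), and the small-subunit core members 40.0% ± 0.169 and 45.4% ± 0.194. The 7 paralogues held 0.328% ± 0.0303 in spleen, 0.797% ± 0.0344 in brain and 3.99% ± 0.276 in muscle.

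**Figure D1:**
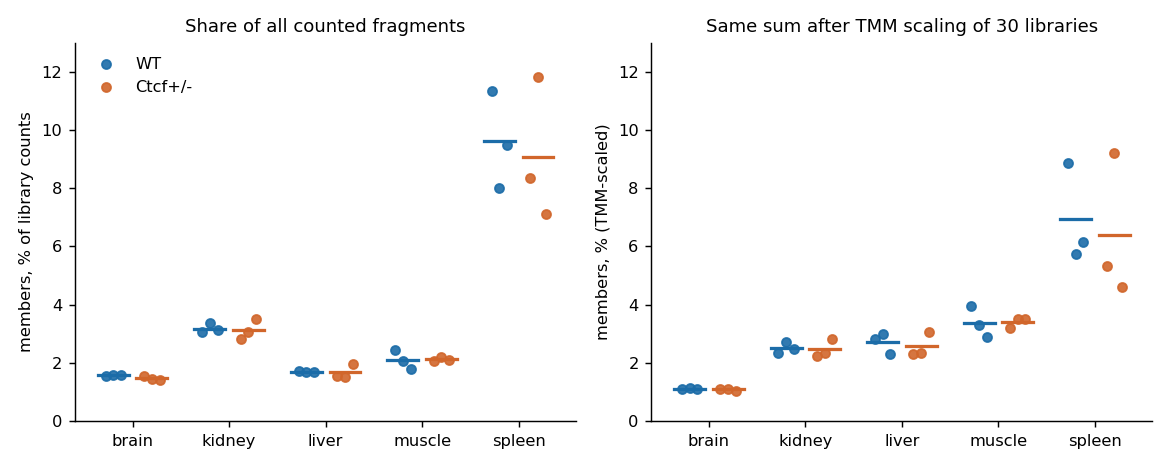
Summed counts of the 83 members in each of the 30 libraries, as a percent of all counts (left) and after TMM scaling over the 30 libraries (right). Points are libraries, bars are means of 3, blue is WT and orange Ctcf+/-. Spleen libraries, at 7.10% to 11.8% on the left, lie above all others, and spleen also has the widest spread.

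Spleen libraries also differed most among themselves, and so did their markers of other cells. The summed level of 6 erythroid genes was 63086, 40520 and 10521 CPM in the WT spleen libraries and 14779, 54181 and 24200 CPM in the Ctcf+/- ones. For 6 genes of dividing cells it was 1184, 1426 and 374 CPM in WT and 434, 1031 and 986 CPM in Ctcf+/- spleen, against at most 64.9 CPM in any library of another tissue. Another 9 genes mark the exocrine pancreas, which lies beside the spleen, and their sum was 1708 CPM in Ctcf+/- replicate 2 and at most 217 CPM in the other spleen libraries. The spleen libraries with the highest member share of each genotype, WT replicate 1 (11.3%) and Ctcf+/- replicate 2 (11.8%), were also those with the highest erythroid sum, but the other 2 libraries of each genotype were in the opposite order for the 2 measures. The part of these cells in the members' share was not tested. In bulk tissue, more cells of a type rich in these mRNAs and more such mRNA per cell cannot be told apart.

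Gene by gene, nearly the whole set was low in brain and high in spleen. Each WT tissue was set against the mean of the other 4 in 1 edgeR quasi-likelihood fit of the 15 WT libraries, and a gene was called at a Benjamini-Hochberg adjusted p under 0.05 and a fold of at least 2. In spleen 75 of 83 members were called higher, beside 29% of the 22933 genes tested, and 2 lower (29.5% of all genes). The members' median log2 fold change there was 1.63, a fold of 3.10, while the median of all genes was -0.21. In brain 73 members were called lower (22.7% of all genes) and 0 higher (32%), with a median of -1.65 against -0.02. Of the 76 core members, 72 were called in spleen and 70 in brain. Without WT spleen replicate 1, which had the highest member share, 61 members were called higher in spleen. The libraries gave the same picture: in 63 members all 3 spleen libraries lay above the other 12 (19.7% of all genes) and in 0 below (14.8%), and in 74 members all 3 brain libraries lay below the others (10.5%) and in 0 above (21.3%).

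In the other tissues few members were called. Kidney had 1 member called higher (23.8% of all genes) and 1 lower (11.7%), with a median of -0.21 against -0.02. Liver had 2 higher (19.4%) and 1 lower (20.4%), with a median of -0.08 against -0.22. Muscle had 6 higher (22.8%) and 3 lower (25.9%), with a median of 0.33 against -0.34. The libraries of muscle lay all above the others in 2 members, Rpl3l and Rps2 (14.1% of all genes), and all below in 2, Rpl3 and Rpl13a (9.24%). Those of kidney lay all below in 1 member (2.39%) and all above in 0 (8.98%), and those of liver in 0 either way (6.34% below, 9.81% above). Scaling by total counts moved the median of all genes by 0.67 in spleen, 0.59 in brain, 0.46 in kidney, -0.77 in liver and -0.98 in muscle (log2). The calls then became 2 higher and 1 lower in kidney, 1 and 26 in liver, 2 and 12 in muscle, and 1 and 47 in brain, and the sign of the members' median turned in kidney (0.26) and muscle (-0.65). Such a change of scale moves all genes of a contrast by about the same amount. By construction, the members' median relative to that of all genes was therefore nearly the same on either scale. It was 1.84 and 1.85 in spleen, 0.67 and 0.67 in muscle, 0.14 and 0.14 in liver, -0.19 and -0.17 in kidney, and -1.64 and -1.62 in brain.

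Among core members, 72 of 76 had their lowest mean in brain and 75 their highest in spleen, and the highest tissue mean was a median of 6.33 times the lowest. The exceptions were few. Rpl3, Rpl13a and Rpl24 were lowest in muscle, Rps29 was lowest in kidney, and Rps2 was highest in muscle. These 5 were picked out after their values were seen, and 2 of them (Rpl13a and Rpl24) are members with over 30% of their exon bases inside another gene.

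Of the 3 members named for the largest fold with no overlap in brain and in spleen, Rps27l and Rps27 are described with their pair, and the other 4 were as follows. Rplp0, the stalk protein that anchors the acidic proteins Rplp1 and Rplp2, had 166, 176 and 169 CPM in WT brain and means of 1704 CPM in spleen, 1416 in muscle, 707 in liver and 678 in kidney. Its log2 fold change in brain was -2.61 in the edgeR fit. Rpl27, a large-subunit protein, had 50.1, 51.5 and 51.2 CPM in brain and 593 ± 115 CPM (SD, n = 3) in spleen. At the other end, Rps16 of the small subunit had 1717, 1030 and 1166 CPM in WT spleen and at most 413 CPM in any other WT library. Rpl12, which lies at the base of the stalk, had 1681, 1126 and 1250 CPM in spleen and at most 559 CPM elsewhere. In both the spleen libraries did not overlap any other, although replicate 1 was well above the other 2.

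To see which members departed from the common level, the same fit was run with the summed counts of the members as the library size. This scale removes by construction what the members share. On it 5 members were called higher in brain (61.8% of all genes on this scale) and 2 lower (7.13%), 0 higher in spleen (13.8%) and 4 lower (53%), and 4 higher (17%) and 5 lower (34.1%) in muscle. In kidney 2 were higher (27%) and 1 lower (8.89%), and in liver 2 higher (20.9%) and 1 lower (18.2%). The core members called on this scale were Rpl3, Rpl13a, Rpl24 and Rps29, each higher in brain and lower in muscle, and Rps2, higher in muscle. For the first 4, the mean set against brain contains the low muscle value, so their brain and muscle calls are not independent. All other calls were paralogues.

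**Figure D2:**
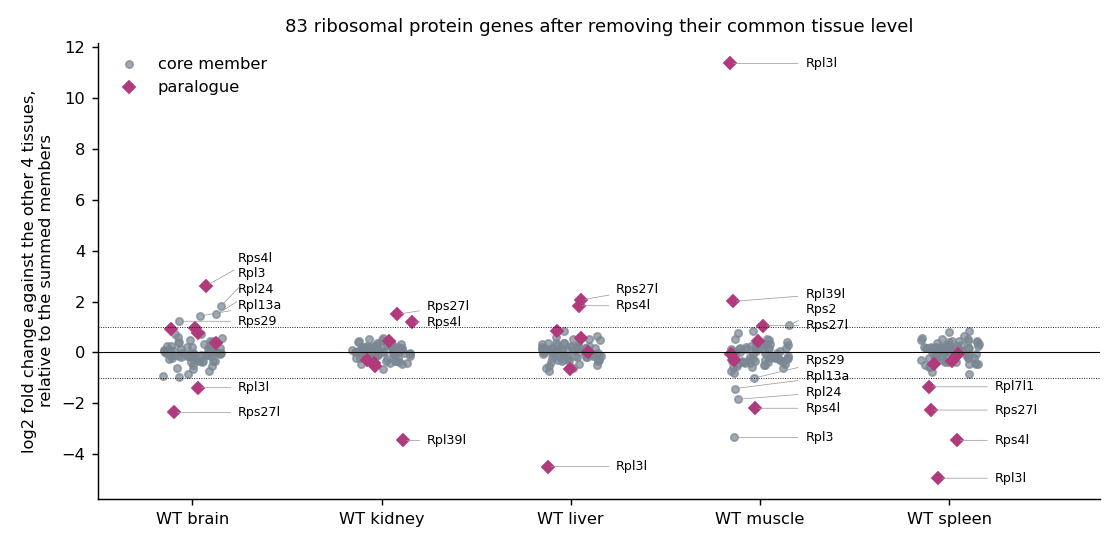
Log2 fold change of each member in a WT tissue against the other 4, with the members' summed counts as library size. Grey circles are the 76 core members, diamonds the 7 paralogues, dotted lines mark a fold of 2, and names are given to members called at that fold and an adjusted p under 0.05. Most core members lie within a fold of 2 of the set in every tissue, and Rpl3l in muscle (11.37) and Rpl3 in muscle (-3.34) lie farthest out on either side there.

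Muscle had far more Rpl3l than Rpl3, and every other tissue the reverse. Rpl3 (ENSMUSG00000060036, chromosome 15, 80077794 to 80091868, minus strand, GRCm38) is the core protein near the peptidyl transferase centre, and Rpl3l (ENSMUSG00000002500, chromosome 17, 24727820 to 24736143, plus strand) is its muscle form. Per kilobase of exon, Rpl3l had 739, 633 and 645 CPM in the WT muscle libraries and at most 0.807 CPM in any other WT library. It was at 0 counts in WT liver replicate 2 and at 10 and 5 counts in the other 2 liver libraries. Rpl3 had 30.6, 25.6 and 17.1 CPM per kilobase in muscle, against 129, 136 and 128 in brain, 130, 154 and 140 in kidney, 159, 149 and 138 in liver and 451, 298 and 336 in spleen. Muscle did not overlap any other tissue for either gene. The log2 fold change in muscle was 11.81 (SE 0.29, adjusted p = 8.52e-14, edgeR) for Rpl3l and -2.86 (SE 0.20, adjusted p = 7.25e-09) for Rpl3.

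As a share of the pair's counts per kilobase, Rpl3l made up 96.5% ± 0.778 in WT muscle (SD, n = 3) and at most 0.575% in any other WT library. No word of Rpl3l was shared with another gene, whereas 85.6% of the words of Rpl3 were, in 26 other genes, so the counted level of Rpl3 is less certain than that of Rpl3l. How far this moves the pair's share was not tested. The share of this and each later pair also rests on annotated exon lengths, whose part was not tested. Among the brain libraries Rpl3 stood high for a member: its log2 fold change there was 0.17 where the core median was -1.66.

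Rps2, the small-subunit protein at the mRNA entry region, is the annotated neighbour of Rpl3l. The genes lie 5890 bases apart on the plus strand of chromosome 17 with Ndufb10 between them, and their start regions are the first 2 shown above. The RefSeq start of Rps2 lies 1947 bases inside the gene as annotated for the counts. WT muscle had 1166, 1031 and 980 CPM per kilobase of Rps2, spleen 848, 624 and 621, liver 497, 561 and 446, kidney 364, 484 and 492, and brain 112, 123 and 106. Muscle lay above every other library. Its log2 fold change was 1.54 (edgeR, SE 0.13, adjusted p = 8.80e-08), and 1.08 relative to the summed members. With scaling by total counts it was 0.56 and missed the fold minimum. In Rps2, 71.3% of the words also occurred in other genes.

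**Figure D3:**
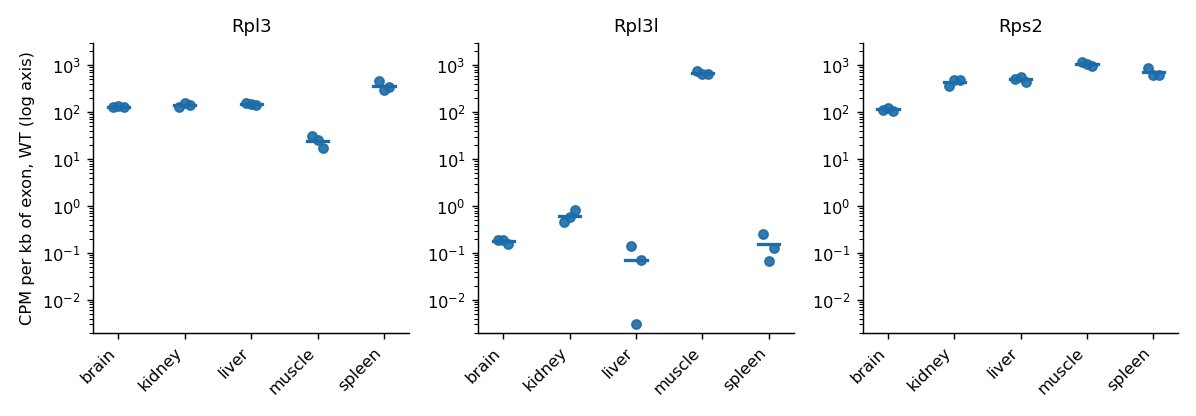
Level of Rpl3, Rpl3l and Rps2 in the 15 WT libraries, in CPM per kilobase of exon on 1 shared log axis. Points are libraries and bars means of 3, and the liver library with 0 counts of Rpl3l is drawn at the foot of the axis. Rpl3 is lowest and Rpl3l and Rps2 are highest in muscle.

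Rps27l, a paralogue of Rps27 known as a target of p53, split the tissues differently from the rest. Its levels in CPM per kilobase were 9.56, 10.8 and 9.91 in WT brain and 79.4, 58.4 and 48.5 in spleen. They were 179, 198 and 182 in kidney, 255, 216 and 177 in muscle and 303, 295 and 219 in liver. Brain was apart from all others and spleen came next, so the tissue highest for Rps27 was the second lowest for Rps27l. Rps27 had 1404, 701 and 946 CPM per kilobase in spleen and at most 268 elsewhere. Rps27l therefore made up 52.9% ± 3.77 of the pair in WT liver, 46.0% ± 2.85 in muscle, 45.4% ± 3.03 in kidney, 8.56% ± 1.04 in brain and 5.97% ± 1.51 in spleen (SD, n = 3 each). Of the words of Rps27, 63.1% occurred in other genes, against 13.7% for Rps27l, so the counted level of Rps27 is the less certain. How far this moves the share of Rps27l was not tested. Its log2 fold change in brain was -3.997 (SE 0.20, adjusted p = 1.10e-10, edgeR) and in liver 1.94 (SE 0.13, adjusted p = 7.07e-09).

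Rps4l, a gene related to the X-linked Rps4x and without an annotated coding transcript, ran against the set. In WT libraries it had 16.9, 16.1 and 16.9 CPM per kilobase in brain, 17.5, 13.8 and 17.1 in kidney and 32.4, 9.77 and 30.2 in liver, but 4.95, 3.97 and 2.33 in muscle and 4.76, 1.97 and 3.53 in spleen. The 2 low tissues did not overlap the 3 high ones. Rps4x was lowest in brain and highest in spleen like most core members, from 128 ± 3.48 CPM per kilobase in brain to 813 ± 166 in spleen (SD, n = 3). Rps4l was thus 11.5% ± 0.462 of the pair in brain and 0.407% ± 0.0965 in spleen. Of the words of Rps4x, 72.2% occurred in other genes, and those of Rps4l were not assessed, so the level of this share is uncertain. WT liver replicate 2 stood apart from the other 2 liver libraries, with 2.71% of the pair against 9.38% and 9.34%.

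Rpl22l1, the paralogue of the RNA-binding protein Rpl22, had 16.3, 16.8 and 14.3 CPM per kilobase in WT brain, 15.4, 18.3 and 17.4 in kidney and 17.3, 13.3 and 14.4 in liver. It had 38.2, 40.5 and 35.5 in muscle and 49.9, 36.7 and 39.0 in spleen. Brain, kidney and liver overlapped each other, as did muscle and spleen, and the 2 sets were apart. Since Rpl22 was lowest in brain (23.6 ± 0.720 CPM per kilobase, SD, n = 3), Rpl22l1 was 40.1% ± 2.72 of the pair in brain, 33.9% ± 2.35 in muscle, 24.9% ± 0.921 in spleen, 20.4% ± 1.27 in kidney and 19.2% ± 1.72 in liver. These shares divide by annotated exon lengths of 1989 bases for Rpl22l1 and 2911 for Rpl22. The longest coding transcript held 503 words in Rpl22l1 and 2002 in Rpl22, so the level of the share depends on the length used. Of these words, 57.3% in Rpl22l1 and 5.19% in Rpl22 occurred in other genes. Neither effect on the share was tested.

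The other 3 paralogues were minor. Rpl7l1 was 7.09% ± 0.773 of its pair with Rpl7 in WT spleen and between 12.2% and 16% in the mean of each other tissue. Rpl6l stayed at or under 0.911% of its pair with Rpl6 in every WT library. Rpl39l, which is known from the testis, was nearly absent. WT muscle libraries had 13, 27 and 9 counts and WT spleen 21, 6 and 34, while WT kidney had 1 count in each library. It was called higher in muscle and in spleen at these counts. Its call as lower in kidney rests on those 3 counts, so no fold is given, and that call ended when genes had to reach 10 counts in every library.

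Groups of members with a known role followed the whole set, where 73 of 83 were lower in brain and 75 of 83 higher in spleen, beside 22.7% and 29% of all genes. The 9 genes in the list of those mutated in Diamond-Blackfan anaemia, a failure of red cell production, were all called lower in brain (median log2 fold change -1.74) and 8 of 9 higher in spleen (1.74). Rpl5 and Rpl11, which form a particle with the 5S RNA that can hold back Mdm2, were called in both tissues (medians -1.77 and 1.60). The 3 stalk proteins were called lower in brain and higher in spleen, and in muscle they had a median of 0.80 with 1 of 3 called, Rplp0. The 4 X-linked members had medians of -1.61 in brain and 1.73 in spleen, with 4 and 3 of 4 called. Rps27a, which is made as a fusion with ubiquitin, had -1.37 in brain and 1.42 in spleen.

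Between members, levels were compared per kilobase of exon over the WT tissue means. Rplp1 was highest at 1564 CPM per kilobase, followed by Rps15 at 911 and Rps12 at 897. The lowest core members were Rpl24 at 1.13, Rpl13a at 9.78 and Rps15a at 48.1. The first 2 are overlapped by other genes as stated above, and Rps15a had an annotated exon length of 6270 bases. No level was corrected for words shared with other genes, and the part of overlap and annotated length in this order was not tested.

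Genes that serve the same pathway were counted in the same fit, and their counts are read against the shares of all genes, 29% higher and 29.5% lower in spleen, 22.8% higher and 25.9% lower in muscle, and 22.7% lower in brain. Of 48 tested ribosome biogenesis genes, 14 were called higher in spleen and 1 lower (median 0.55), and in muscle 9 were higher and 1 lower (0.42). The higher calls are thus near the share of all genes in spleen and below it in muscle. Nop56, a core box C/D nucleolar protein, had 126 ± 13.2 CPM in WT spleen (SD, n = 3) and a mean of 37.2 elsewhere, and Rrp12, an export factor, had 73.7 ± 4.001 CPM in muscle and a mean of 17.8 elsewhere. Of 22 mRNAs known to begin with a pyrimidine tract, 9 were called higher in spleen and 12 lower in brain. Eef1a1, the general elongation factor, was an exception in muscle, with 385 ± 90.3 CPM against a mean of 4403 elsewhere (log2 fold change -3.34, adjusted p = 3.19e-09, edgeR). Among 7 tested host RNAs of small nucleolar RNAs, 5 were called higher in spleen and 3 lower in brain. Of 14 mTOR control genes 1 was called higher in spleen and 4 lower, the latter near the share of all genes. The lower ones included Mtor (log2 fold change -1.32) and Rheb (-1.02). The higher one was Myc, a transcription factor placed on this list, with 43.1 ± 7.31 CPM in spleen and a mean of 6.57 elsewhere.

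Mitochondrial ribosomal protein genes build the separate ribosome inside mitochondria. Of 77 tested, 56 were called higher in muscle (22.8% of all genes) and 0 lower (25.9%), with a median of 1.22. In spleen 0 were higher (29%) and 35 lower (29.5%), with a median of -0.94. In brain 39 were lower (22.7%) and 0 higher (32%), with a median of -1.004. Mrpl42, for example, had 435 ± 26.5 CPM in WT muscle and 23.3 ± 3.70 in spleen (SD, n = 3).

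Loss of 1 Ctcf allele was compared with WT within each tissue. The summed share of the members was 1.56%, 1.58% and 1.59% in WT brain and 1.53%, 1.45% and 1.42% in Ctcf+/- brain, a ratio of 0.931, and the groups did not overlap. With 3 against 3 the exact two-sided permutation test cannot go below p = 0.1, which was its value here. After TMM scaling over the 30 libraries of all tissues the ratio was 0.978 and the groups overlapped. The values were then 1.09%, 1.13% and 1.11% in WT and 1.11%, 1.11% and 1.04% in Ctcf+/- brain. With TMM scaling within brain, as in the genotype fit, the members' median log2 fold change was -0.097, close to -0.101 with total counts. Ctcf+/- kidney had 2.81%, 3.07% and 3.50% (ratio 0.984, exact p = 0.9) and Ctcf+/- liver 1.53%, 1.51% and 1.97% (0.989, exact p = 1). Ctcf+/- muscle had 2.06%, 2.18% and 2.10% (1.01, exact p = 0.9) and Ctcf+/- spleen 8.35%, 11.8% and 7.10% (0.946, exact p = 0.8). In these 4 tissues the genotypes overlapped on the scale of all counts.

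No member was called between the genotypes in any tissue by edgeR's quasi-likelihood test at an adjusted p under 0.05, where 0.0157% of 19166 genes were called in brain, 0.0211% of 18937 in kidney, 0.0193% of 15584 in liver, 0.0249% of 16064 in muscle and 0.242% of 18615 in spleen. At an unadjusted p under 0.05 there were 9 of 82 members in brain (2.96% of all genes), 1 of 82 in kidney (6.44%), 0 of 81 in liver (4.56%), 1 of 83 in muscle (6.45%) and 0 of 83 in spleen (3.52%). DESeq2 called 1 member in muscle, Rpl22l1, and 0 in the other tissues. Over all tissues together, 0 of 83 members were called for a shared genotype effect (0.194% of 24262 genes) or for one that differed between tissues (0.758%). At an unadjusted p under 0.05 these fits had 2 members (5.91% of all genes) and 0 (6.66%).

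Although no single member was called, those of brain lay to one side. Of 82 members 81 had a negative log2 fold change in Ctcf+/- brain, beside 51.8% of all genes, and the median was -0.10, which is -6.49%, against -0.0043 for all genes. In 26 members all 3 Ctcf+/- libraries were below all 3 WT libraries, where 4.1% of all genes did this, and in 1 member (Rps4l) all 3 were above (3.73%). Members of 1 library rise and fall together, so these 82 values are not independent. In spleen 79 of 83 were negative (51.1% of all genes) with a median of -0.11, but for 0 members did all Ctcf+/- libraries lie below WT (2.29% of all genes), and for 1, Rpl39l, above (4.35%). Liver had 71 of 81 below 0 (52.4%) with a median of -0.08, which became 47 of 81 and -0.01 when libraries were scaled by total counts. Kidney had 56 of 82 (49.9%) with a median of -0.03, and muscle 35 of 83 (51.6%) with a median of 0.01. The groups were apart in few members there: Rpl22l1 was higher in kidney (6.15% of all genes, and 0 members lower beside 5.28%) and Rps4l higher in liver (4.68%, and 0 lower beside 4.31%). In muscle Rpl22l1 and Rps29 were higher (5.91%) and Rpl4 lower (6.28%).

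The brain members with the smallest unadjusted p were Rps20 and Rps4l. Rps20, of the small-subunit head, had 134, 138 and 143 CPM in WT and 125, 121 and 119 CPM in Ctcf+/- brain, a log2 fold change of -0.18 (SE 0.06, unadjusted p = 0.0104, adjusted p = 1, edgeR). Rps4l went the other way, with 22.3, 20.9 and 22.4 CPM in WT and 28.5, 24.5 and 24.8 CPM in Ctcf+/- brain (log2 fold change 0.25, SE 0.08, unadjusted p = 0.0164, adjusted p = 1, edgeR). Rpl23a had 67.3, 68.3 and 69.3 CPM in WT and 64.0, 59.1 and 61.7 CPM in Ctcf+/- (log2 fold change -0.15), and 62.3% of its exon bases lie inside other genes, mainly Tlcd1. In each of the 3 genes the genotypes did not overlap.

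**Figure D4:**
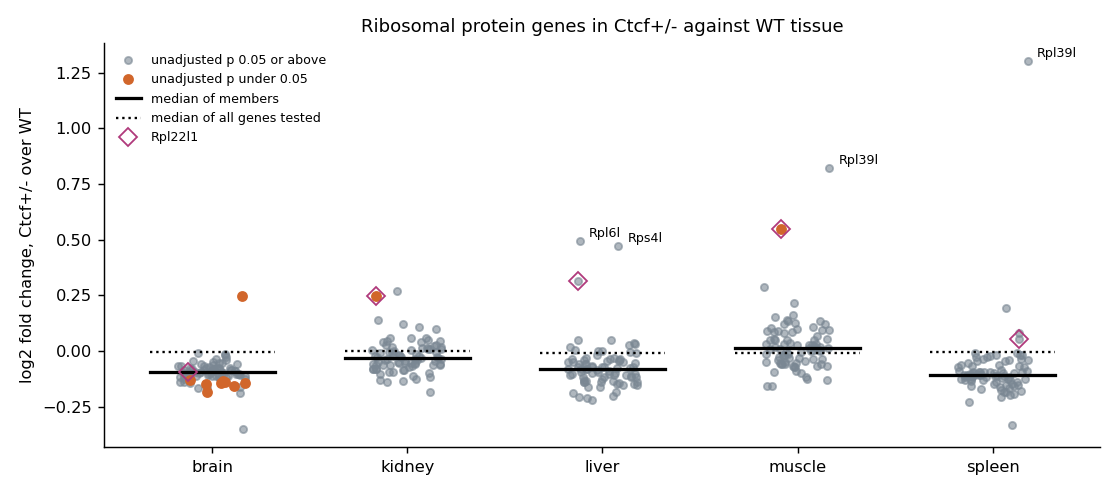
Log2 fold change of each tested member in Ctcf+/- against WT, by tissue. Orange marks an unadjusted edgeR p under 0.05, open diamonds mark Rpl22l1, solid bars are the members' medians and dotted bars those of all genes tested. Brain members form a narrow band below 0 (median -0.10), and Rpl22l1 lies above the band in kidney, liver and muscle.

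Rpl22l1 had the smallest p of any member in muscle and in kidney. In muscle it had 44.6, 46.4 and 41.3 CPM in WT and 53.9, 67.8 and 71.2 CPM in Ctcf+/-, with no overlap. It differed by 0.55 on the log2 scale (SE 0.12, unadjusted p = 0.00194), which missed the threshold after adjustment (adjusted p = 0.338, edgeR). With DESeq2 the log2 fold change was 0.54 and the adjusted p 0.0312, and over all 14 alternatives the adjusted p ran from 0.0312 to 0.659. The summed level of 5 adipocyte genes was 468, 383 and 261 CPM in WT and 734, 462 and 572 CPM in Ctcf+/- muscle, with overlap. That of the 6 genes of dividing cells was 4.10, 4.92 and 1.37 CPM against 6.65, 9.33 and 5.99 CPM, without overlap. The dividing-cell sum was also apart in kidney (12.6, 11.7 and 12.1 against 40.5, 16.6 and 14.4 CPM), and overlapped in brain, liver and spleen. The part of these cells in the results for Rpl22l1 was not tested. In kidney Rpl22l1 had 40.3, 47.3 and 44.8 CPM in WT and 47.8, 53.8 and 55.5 CPM in Ctcf+/- (log2 fold change 0.25, SE 0.10, unadjusted p = 0.0307, adjusted p = 0.692, edgeR), again with no overlap. Liver had 22.5, 17.4 and 19.7 CPM in WT and 20.5, 22.3 and 31.3 CPM in Ctcf+/- (0.31, adjusted p = 0.9999, edgeR). In spleen the groups overlapped, with 150, 111 and 111 CPM against 116, 173 and 96.4 CPM (0.05), and in brain as well, with 45.5, 46.1 and 39.9 CPM against 43.2, 44.7 and 35.2 CPM (-0.09).

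As a share of the pair with Rpl22, Rpl22l1 was 31.2%, 35.1% and 35.4% in WT muscle and 39.9%, 43.3% and 43.4% in Ctcf+/- muscle. In kidney it was 19.1%, 20.5% and 21.6% against 25.5%, 25.1% and 24.6%. In spleen, where the CPM values overlapped, it was 23.8%, 25.4% and 25.3% against 27.5%, 27.0% and 28.7%. In these 3 tissues the genotypes did not overlap, at the smallest p the exact permutation test allows (0.1 each, 0.5 after Benjamini-Hochberg adjustment over 35 comparisons of 7 pairs in 5 tissues). With no difference, 3 against 3 libraries separate in either direction with a probability of 0.1. Among the 35, shares were also apart for Rps4l in brain, Rpl6l in liver, and Rpl39l, at few counts, in kidney and spleen. The mean differed by 8.35 percentage points in muscle, 4.68 in kidney, 2.91 in spleen, 3.47 in liver (exact p = 0.2) and -0.49 in brain (exact p = 0.7). Fitted as 1 effect over all tissues, the log2 difference of Rpl22l1 was 0.23 (SE 0.08, unadjusted p = 0.0113, adjusted p = 0.509, edgeR), and a difference between tissues was not called (unadjusted p = 0.18, adjusted p = 1).

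**Figure D5:**
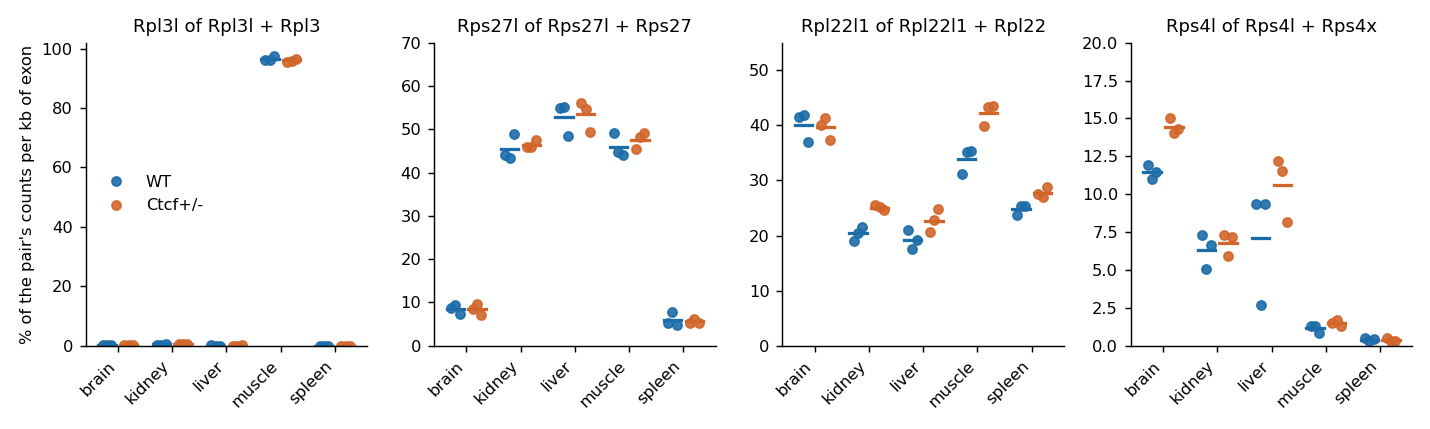
Share of a paralogue in the counts per kilobase of its pair, by tissue, for 4 pairs. Points are libraries, bars are means of 3, blue is WT and orange Ctcf+/-, and the vertical axes differ in range. Rpl3l makes up over 95% of its pair in every muscle library, and the share of Rpl22l1 is higher in Ctcf+/- than in WT muscle, kidney and spleen without overlap.

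Rpl3l made up 96.1% ± 0.501 of its pair in Ctcf+/- muscle and 96.5% ± 0.778 in WT (exact p = 0.5). Rps27l made up 53.4% ± 3.50 in Ctcf+/- liver and 52.9% ± 3.77 in WT (exact p = 0.7), and the genotypes of this pair overlapped in all 5 tissues. Rps4l was 14.4% ± 0.528 of its pair in Ctcf+/- brain and 11.5% ± 0.462 in WT (SD, n = 3), without overlap (exact p = 0.1). A p that misses the threshold at 3 against 3 does not show that the values are the same.

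Other members among those with the smallest p of their tissue were far from the threshold. In kidney these were Rpl22 (-0.14 on the log2 scale) and Rpl10a (-0.11), in liver Rpl6l (0.50), and in spleen Rps4l (-0.33) and Rpl7l1 (-0.16). All of these groups overlapped in CPM. Rpl39l had the largest fitted differences, at very low counts. Spleen had 21, 6 and 34 counts in WT and 51, 58 and 46 in Ctcf+/-, without overlap (log2 fold change 1.302, SE 0.58, unadjusted p = 0.0591, adjusted p = 1, edgeR). Muscle had 13, 27 and 9 counts in WT and 29, 30 and 22 in Ctcf+/-, with overlap (0.82, adjusted p = 0.855, edgeR). The fit of a shared effect gave 0.70 (SE 0.29, unadjusted p = 0.0217, adjusted p = 0.655, edgeR). In brain, kidney and liver it fell below the count filter and was not tested, and the same held for Rpl3l in liver.

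None of the 22 pyrimidine tract mRNAs, 48 biogenesis genes, 14 mTOR control genes, 77 mitochondrial ribosomal protein genes or 7 to 8 small nucleolar RNA hosts tested was called between the genotypes in any tissue by edgeR. Their median log2 fold changes in brain, in this order, were -0.07, -0.00012, 0.02, -0.02 and -0.06, beside -0.10 for the members. At an unadjusted p under 0.05 there were at most 2 genes of a list in any tissue, and in brain 1 in all, a mitochondrial ribosomal protein gene.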

How the data were processed

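Per the file headers, the authors counted fragments per gene with featureCounts 1.5.0-p3 against Ensembl 86 (GRCm38), without strand and leaving out multi-mapping fragments, and deposited raw counts, 1 table per tissue. The submitters' processing notes name FastQC, STAR and DESeq2, without versions. RNA was extracted with TRIzol, treated with DNase and had an integrity number over 7, per the labels' protocols. Members and gene lists were chosen with earlier results of these data known. A table of mouse gene names gave symbols for 48349 of 48709 genes, and shared words were read from GENCODE transcripts of the same build.

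Counts were fitted with edgeR 4.0.16 (quasi-likelihood, TMM scaling, filterByExpr) in R 4.3.3: genotype in the 6 libraries of each tissue, tissue in the 15 WT libraries, and shared or differing genotype effects in all 30. All p-values were adjusted over all genes tested by Benjamini-Hochberg, and DESeq2 1.42.0 was an alternative. Levels are TMM-scaled CPM on the scale of the fit beside them, so a gene's WT level differs between the tissue and genotype sections. Shares were tested over libraries by exact permutation with SciPy 1.17.1. The fits were tested on simulated data. Members named were the paralogues and their partners, the role groups, up to 3 called members of largest fold in each tissue and direction whose libraries did not overlap those of other tissues, the 3 of smallest p per genotype fit, and the 3 highest and 3 lowest per length. Same-numbered WT and Ctcf+/- libraries deviated together in brain (r = 0.327, 0.542 and 0.687) and kidney (0.309, 0.231 and 0.233). The values were 0.08, 0.34 and 0.45 in muscle and 0.04, 0.12 and 0.29 in liver. They were -0.56, -0.15 and 0.40 in spleen, where the highest value was between different numbers (WT 1 with Ctcf+/- 2, r = 0.825). The labels do not say what a number marks, and p-values measure the spread between these libraries. Because 3 WT mice gave the 5 tissues, the 15 WT libraries are not fully independent. Results for a few genes are not reported here.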

Additional observations from a re-analysis of the deposited data

Results flagged for a closer look

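Rps29, a small-subunit protein, went in opposite directions in 2 tissues, with the genotypes apart in each. In brain it had 265.7, 271 and 277 CPM in WT and 264.8, 247 and 253 CPM in Ctcf+/-, a log2 fold change of -0.0911 (unadjusted p = 0.137, adjusted p = 1, edgeR). In muscle it had 118.8, 115 and 82.6 CPM in WT and 123.9, 124.3 and 118.9 CPM in Ctcf+/-, a log2 fold change of 0.215 (unadjusted p = 0.163, adjusted p = 0.89, edgeR). The difference between brain and muscle was not tested by itself, and a difference over the 5 tissues was not called (unadjusted p = 0.824, adjusted p = 1, edgeR).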

How the results depend on the processing

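The counts of members called between genotypes stayed at 0 under all alternatives but 1: DESeq2 called 1 member in muscle. The replicate block called 0 members in every genotype fit, and in brain it moved the members at an unadjusted p under 0.05 from 9 to 18 (lowest adjusted p = 0.306), while the share of all genes there went from 2.96% to 6.69%. For WT tissues it changed 1 count, members called higher in brain, from 0 to 1. That count was also 1 with DESeq2, DESeq2 size factors, scaling by total counts, 10 counts in every library, all 30 libraries or no fold minimum, and 0 to 1 with a replicate left out. Relative to the summed members it was 5.

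Members called lower in brain were 47 with total counts and 2 relative to the summed members. In kidney the higher count was 2 with total counts, a filter of 1 count, no fold minimum or the summed members, and 1 to 2 with a replicate left out. The lower count there was 0 with 10 counts in every library, 18 with no fold minimum, and 1 to 2 with a replicate left out. In liver the higher count was 1 with total counts and 7 with no fold minimum, and the lower count 26, 0 and 16 with total counts, 10 counts in every library and no fold minimum. In muscle the higher count was 2 with total counts and 40 with no fold minimum, and the lower count 12, 5 and 5 with total counts, the summed members and no fold minimum. In spleen the higher count was 0 relative to the summed members, and the lower count 4 there and 1 with 10 counts in every library. Apart from the filters and fold minimum, which change what can be called, the cause was not tested.

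The brain share ratio between genotypes was 0.978 with TMM scaling over the 30 libraries and 0.969 for the median member on that scale. With TMM scaling the WT share ratio to the other tissues was 1.02 in muscle, above 1, 2.86 in spleen (4.50 on all counts) and 0.778 in liver (0.411). With a replicate left out the tissue ratios were 0.361 to 0.452 in brain, 0.806 to 1.04 in kidney and 4.10 to 4.88 in spleen. With 2 libraries of brain or spleen left, the exact test cannot pass after adjustment. Rps4l in Ctcf+/- spleen, at -0.33, ranged from -0.61 to 0.0043 with a replicate left out, the latter without WT replicate 1. An added alternative, chosen after seeing the data, left out the 5 members overlapped by other genes, and no count moved by over 1.5 times. Depth limits Rpl39l, and Rpl3l outside muscle.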
